A study of Mus musculus with 26 samples.

Results

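H3K27ac, acetylated lysine 27 of histone H3, was compared between day 5 and day 6 of the differentiation of mouse embryonic stem cells into spinal motor neurons, the step from newly born to maturing motor neurons. Members were chosen by overlap: a day 5 peak that shared at least 1 bp with a day 6 peak was called kept, a day 5 peak that shared none was called lost, and a day 6 peak that shared none with day 5 was called gained. The day 5 list held 24525 peaks and the day 6 list 47275, together 71800 of the 126794 H3K27ac peaks of the series. The other 54994 came from 2 libraries of day 4, the progenitor stage. Of the 26 samples of the series, 4 are H3K27ac libraries and the comparison rests on 2 of them, with 1 library per day. Differences between the days therefore have no replicate check and no test, and intervals in parentheses are exact (Clopper-Pearson) 95% binomial intervals that cover counting error over peaks only.

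Both libraries came from Ainv15 embryonic stem cells of the iCre line, described by their labels as postmitotic motor neurons. All groups used here received 1 uM retinoic acid and 0.25 uM SAG, a Hedgehog agonist, on day 2, except the open chromatin library of day 2, whose label lists no additions. DAPT, an inhibitor of gamma-secretase that blocks Notch signalling, was given at 5 uM on day 4 for the day 5 cells and on days 4 and 5 for the day 6 cells. The day 4 libraries had retinoic acid and SAG without DAPT. The labels name no separate cultures, and the depth of the H3K27ac libraries is unknown. The deposited name of the second day 4 H3K27ac list mentions HBG3, while its label gives iCre, so the share of each class with a day 4 peak is also compared without it.

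H3K27ac is written by the acetyltransferases p300 and CBP and marks active enhancers and promoters. The acetylated nucleosomes flank a short nucleosome-depleted stretch where transcription factors bind, which ATAC-seq detects as open chromatin. Isl1, a LIM-homeodomain factor, is required for motor neuron identity, and Onecut1, a CUT-homeodomain factor, is expressed in young motor neurons. Distal enhancers of this kind are known to be exchanged quickly when a cell changes state, while promoter acetylation is more stable.

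Most day 5 regions were still marked on day 6, and most day 6 regions were not in the day 5 list. Of the day 5 peaks, 16216 were kept (66.1%, 65.5 to 66.7) and 8309 were lost, 33.9% of the list. Of the day 6 peaks, 13942 overlapped day 5 (29.5%, 29.1 to 29.9) and 33333 were gained, 70.5% of the list. In bulk chromatin, a region marked in more of the cells and a region marked more heavily in each cell cannot be told apart.

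Since the day 6 list was longer, it was also cut to the 24525 peaks with the highest score, the deposited number in the fifth column of each list, which has no stated unit. At equal length 57.7% of day 5 peaks were kept (57.1 to 58.3), 42.3% were lost, and 12886 day 6 peaks were gained, 52.5% of the shortened list. The day 4 libraries, compared with each other at the length of the shorter list, shared 79.2% and 79.3% of their peaks. Exchange between days 5 and 6 was thus larger than between these 2 libraries of 1 day. With the 24353 highest peaks of each list, 57.8% of day 5 peaks lay in the day 6 list, against 62.9% in the first and 59.7% in the second day 4 list. The day 5 list therefore overlapped the day before at least as much as the day after.

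Day 5 peaks of higher score were kept more often, and day 6 peaks of higher score were gained less often. From the lowest to the highest decile of score in the day 5 list, the share kept went from 40.8% (38.8 to 42.7) to 95.1% (94.2 to 95.9) and was higher in every decile than in the one below it. In the day 6 list, the share gained was 92.1% (91.3 to 92.9) in the lowest decile, 85.6% (84.6 to 86.6) in the fifth and 9.31% (8.49 to 10.2) in the highest. The highest quartile of the day 6 list nevertheless held 3315 gained peaks, 9.95% of all that were gained.

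**Figure D1:**
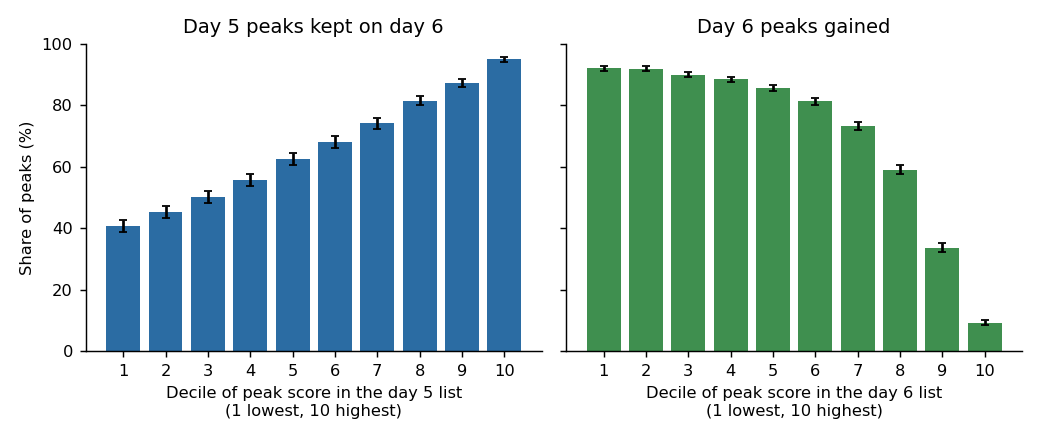
Share of day 5 peaks kept on day 6 (left) and of day 6 peaks gained (right), in percent, by decile of the deposited peak score within each list; bars are shares and lines the exact 95% binomial intervals. The kept share climbs from 40.8% to 95.1%, and the gained share is 92.1% in the lowest decile and 9.31% in the highest.

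Kept, lost and gained peaks were found on all chromosomes. The share of day 5 peaks kept lay between 60.2% on chromosome 16 and 75.8% on chromosome X. The share of day 6 peaks gained lay between 62.8% on chromosome 11 and 76.6% on chromosome 16.

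Individual regions illustrate the 3 classes, in mm9 coordinates that include both the first and the last base. No gene is assigned to them, because no annotation of that build was used here. The kept peak with the highest day 5 score, chr2:160471753-160473162, was 1410 bp wide and had a score of 318. It held an ATAC peak within 1000 bp on days 2, 4, 5 and 6, a p300 event of day 5, and a peak in both day 4 lists. Its H3K27ac was present in every library of the mark.

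The lost peak with the highest score was chr11:114656896-114658176, 1281 bp wide with a day 5 score of 136. It had a peak in both day 4 lists, 2 ATAC peaks nearby on days 2, 4 and 5, and 1 on day 6. All 4 of the lost peaks with the highest scores had a peak in both day 4 lists. For 3 of them, chr2:29711322-29714676, chr12:71522576-71524492 and chr1:61958611-61960666, no ATAC peak lay nearby on day 6. These were regions already marked in progenitors and absent from the day 6 list.

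The gained peak with the highest score, chr14:64373340-64377039, was 3700 bp wide with a day 6 score of 457. It had no peak in either day 4 list, no ATAC peak nearby on days 2 and 4, 1 on day 5 and 1 on day 6, and 1 Onecut1 event of day 6. At chr15:76866627-76869201, another of the 4 highest, ATAC peaks lay nearby on day 6 alone, with 1 Onecut1 event on each of days 5 and 6 and peaks in the first day 4 list. The third of these, chr12:104439028-104442302, had p300 events on days 5 and 6 and ATAC on the same days. The last of them, chr2:177875952-177879145, was open on all 4 days without an H3K27ac peak on day 4 or 5. In 3 of these 4 regions open chromatin was present on day 5, before the peak was called.

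Joined over gaps of up to 12.5 kb, the peaks of both days formed 23112 loci, of which 9402 held peaks of both days, 2395 of day 5 alone and 11315 of day 6 alone. The locus with the most gained bases, chr9:41363503-41422339, held 19 day 6 peaks and none of day 5. Its widest peak, chr9:41386322-41397660, covered 11339 bp and was the widest gained peak of all, and the locus held 10 Onecut1 events of day 6 against 1 of day 5. At chr11:35265392-35453410, a locus of 188019 bp, 38 day 5 peaks stood beside 65 day 6 peaks, 53 of them gained. That locus therefore grew within a region already marked on day 5. Of all gained peaks, 12140 (36.4%) lay in a locus with a day 5 peak.

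Lost peaks lay in loci that held a day 6 peak, kept or gained, about as often as in loci that held none. Of the lost peaks, 4347 (52.3%) lay in a locus with a day 6 peak. Kept peaks lie in such loci by definition, and no expected share was computed for lost or gained peaks. The locus with the most lost bases, chr2:29674729-29746204, held 20 day 5 peaks, of which 12 were lost, and 13 day 6 peaks, of which 7 were gained. At chr12:81891131-81919041, 13 of 15 day 5 peaks were lost, and at chr4:106607308-106675146, 19 of 30 were lost and none was gained. The median distance from a lost peak to the nearest day 6 peak was 12189 bp, with 19.1% within 1000 bp. The median distance from a gained peak to the nearest day 5 peak was 34370 bp, with 12.5% within 1000 bp.

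Few day 5 peaks lay within 50 bp of the limit set by the 1 bp rule. The rule kept 88 day 5 peaks that shared 1 to 50 bp, and 71 lost peaks lay within 50 bp of a day 6 peak. Gained peaks were not counted in this way. A wider limit moved more members: with edges within 1000 bp counted as kept, 72.6% of day 5 peaks were kept and 61.7% of day 6 peaks gained. The least overlap was 1 bp, at chr15:72467464-72467646, and the smallest gap was 1 bp, at chr14:65884696-65884978.

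Kept regions were wider on day 6 than on day 5, and lost peaks were the narrowest class. The median width was 280 bp in lost peaks (quartiles 204 and 434), 372 bp in kept peaks as called on day 5 (245 and 609), 696 bp in kept peaks as called on day 6 (417 and 1164), and 345 bp in gained peaks (234 and 573). Widths of at least 1000 bp were found in 3.83% of lost, 9.45% of gained, 9.99% of kept day 5 and 31.2% of kept day 6 peaks. At equal list length, the median was 289 bp for lost and 596 bp for gained peaks, so the difference between them went from 65.0 to 307 bp. The size of that difference depends on how far down the day 6 list is read.

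**Figure D2:**
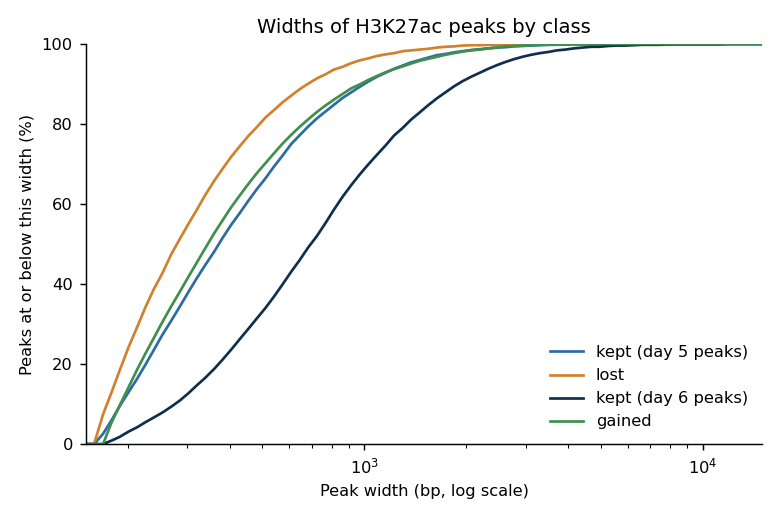
Cumulative share of peaks (percent) at or below each width (bp, log axis) for kept peaks as called on day 5 and on day 6, lost peaks and gained peaks. The lost curve lies leftmost, with a median of 280 bp, the gained and kept day 5 curves lie close together, and the kept day 6 curve lies farthest right, with a median of 696 bp.

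In the 11083 pairs where 1 day 5 peak met 1 day 6 peak and no other, the median width was 367 bp on day 5 and 625 bp on day 6. The median ratio was 1.47 (quartiles 1.10 and 2.26), and 82.2% of pairs were wider on day 6 (81.5 to 82.9). Joining was also more frequent than splitting. Day 6 peaks that held 2 or more day 5 peaks numbered 2157, with up to 13 in 1 peak, while 390 day 5 peaks held 2 or more day 6 peaks. The largest widening within a pair was on chromosome 16, where chr16:7039534-7039809 (276 bp) lay inside the day 6 peak chr16:7038257-7046841 (8585 bp). That day 6 peak had 1 Onecut1 event of day 5 and 3 of day 6 within 1000 bp.

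Covered sequence was 11.5 Mb on day 5 and 29.8 Mb on day 6, with 7.54 Mb in common. That is 65.4% of the day 5 bases and 25.3% of the day 6 bases. Gained peaks held 16.6 Mb, 55.6% of the day 6 bases. The day 4 lists covered 17.8 and 16.2 Mb with median widths of 416 and 479 bp, so the day 5 list, with a median of 336 bp, was the narrowest of the 4 lists and covered the least. The part of this in the gains and in the widening was not tested. Among day 6 peaks that lay in both day 4 lists, 23.9% (23.2 to 24.6), 3112 of 13023, were gained by the rule, that is, missing from the day 5 list between days on which they were called. Among the 31412 day 6 peaks in neither day 4 list, 91.1% (90.8 to 91.4) were gained.

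Lost peaks had open chromatin less often on day 6 than on day 5, gained peaks more often on day 6, and kept peaks more often than either on both days. Inside the H3K27ac peak itself, an ATAC peak of day 5 was found in 32.6% of kept and 8.86% of lost day 5 peaks, against 24.6% of the whole list. An ATAC peak of day 6 was found in 29.9% of kept and 2.86% of lost peaks, against 20.8%. In the day 6 list, ATAC of day 5 was in 54.0% of kept and 16.3% of gained peaks (27.4% of the list), and ATAC of day 6 in 50.7% and 20.9% (29.7% of the list). Open sites lay both inside and beside the acetylated peaks. Around kept day 5 peaks, day 5 ATAC peaks numbered 262 and 254 per 1000 H3K27ac peaks in the 200 bp bins centred 300 bp to either side, and 133 and 157 in the bins at the centre.

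A window of 1000 bp around the peak centre takes in those flanking sites and is the same for all widths. With it, the share of lost peaks with ATAC was 28.3% on day 2, 53.3% on day 4, 48.1% on day 5 and 20.8% on day 6. Gained peaks had 28.7%, 28.7%, 46.8% and 56.9%. Kept day 5 peaks had 69.2%, 78.4%, 88.8% and 83.6%. The corresponding shares of the whole day 5 list were 75.0% for ATAC of day 5 and 62.3% for day 6, and of the whole day 6 list 59.2% and 64.6%. Openness at lost regions was thus highest on the progenitor day, while at gained regions it was already above the day 4 level on day 5, before H3K27ac was called. Kept day 5 peaks also rose from day 4 to day 5. The ATAC lists held 85989, 47839, 55131 and 52645 peaks on days 2, 4, 5 and 6, and were not cut to equal length for these shares.

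**Figure D3:**
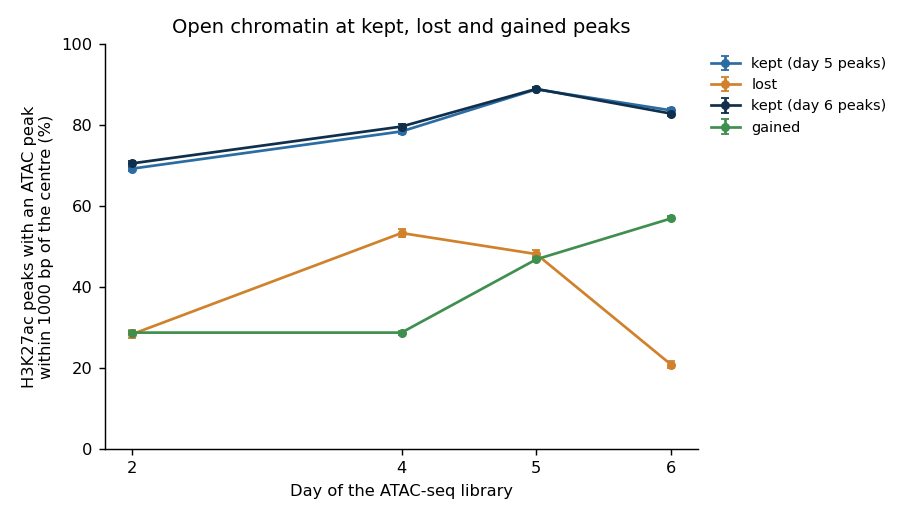
Share of H3K27ac peaks (percent) with an ATAC peak within 1000 bp of their centre, by the day of the ATAC library, for kept peaks as called on each day, lost and gained peaks; lines at the points are exact 95% binomial intervals. Lost and gained peaks start at 28.3% and 28.7% on day 2, meet again on day 5 at 48.1% and 46.8%, and lie at 20.8% and 56.9% on day 6.

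Peak by peak, 41.4% of gained peaks had ATAC near the centre on both days, 15.5% on day 6 alone, 5.38% on day 5 alone and 37.7% on neither. Of the lost peaks, 19.4% had it on both days, 28.7% on day 5 alone, 1.36% on day 6 alone and 50.5% on neither. Of the kept day 5 peaks, 81.2% had it on both days. The order of lost and gained on day 5 depends on the window: inside the peak, ATAC of day 5 was 7.44 points more frequent in gained than in lost peaks, and around the centre it was 1.30 points less frequent. For ATAC of day 6 gained peaks were higher by both, by 18.0 and 36.2 points.

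The gap in openness between kept and lost peaks was also present at like width and at like score. In the narrowest quartile of day 5 peaks, up to 227 bp, ATAC of day 5 was near the centre of 85.8% of kept and 44.1% of lost peaks. In the highest quartile of score, 7.52% (6.85 to 8.24) of day 5 peaks with nearby ATAC were lost, against 43.1% (38.6 to 47.7) of those without. On day 6, kept and gained peaks differed in every quartile of width. From the narrowest quartile to the widest, ATAC of day 6 was near the centre of 59.0%, 75.4%, 87.3% and 86.9% of kept peaks. The shares of gained peaks were 46.3%, 54.6%, 63.0% and 73.4%. Kept and gained day 6 peaks of like score differed less. In the lowest quartile of day 6 score, ATAC of day 6 was near the centre of 43.5% of kept and 38.2% of gained peaks. In the second quartile the shares were 54.5% and 51.7%. The gap over the whole day 6 list, 82.8% and 56.9%, was wider than in either. In the highest quartile of the day 6 list, 90.7% of gained and 94.1% of kept peaks had ATAC of day 6 near the centre. On day 2, however, the shares there were 55.2% and 83.6%.

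p300 events of day 5 lay mostly at kept regions. They were found within 1000 bp of 70.1% of kept (69.4 to 70.8) and 20.2% of lost peaks (19.4 to 21.1), against 53.2% of the day 5 list. In the day 6 list they lay near 70.4% of kept and 23.2% of gained peaks, against 37.2%. Per Mb of searched sequence there were 418 events around kept day 5 peaks, 100 around lost and 113 around gained peaks. Within the highest quartile of day 5 score, 4.31% of peaks with p300 were lost (3.76 to 4.93) and 31.9% of those without (29.4 to 34.5). With event lists cut to equal length, the small excess of day 5 p300 at gained over lost peaks (3.03 points) turned to -0.243 points.

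The p300 list of day 6 held 1337 events, against 19398 on day 5, and reached few regions of any class. Its events lay near 3.39% of kept and 0.433% of lost day 5 peaks (2.39% of the list), and near 3.06% of kept and 3.31% of gained day 6 peaks (3.24% of the list). Of its events, 45.0% (42.3 to 47.7) lay near a gained peak and no kept one, and 26.7% near a kept peak. On day 5 the shares were 22.3% and 58.5%. The searched windows spanned 83.2 Mb around gained, 40.8 Mb around kept day 5 and 41.1 Mb around kept day 6 peaks. Per Mb there were 13.4, 13.8 and 10.7 day 6 p300 events in that order, so gained and kept regions were close in density. Among gained peaks with p300 on day 6, 51.0% (48.0 to 54.0) had p300 on day 5 as well, against 82.9% (79.5 to 86.0) among kept day 5 peaks. Over all gained and all kept day 5 peaks, with or without day 6 p300, day 5 p300 was near 23.2% and 70.1%. Both classes thus lay above their own base share.

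**Figure D4:**
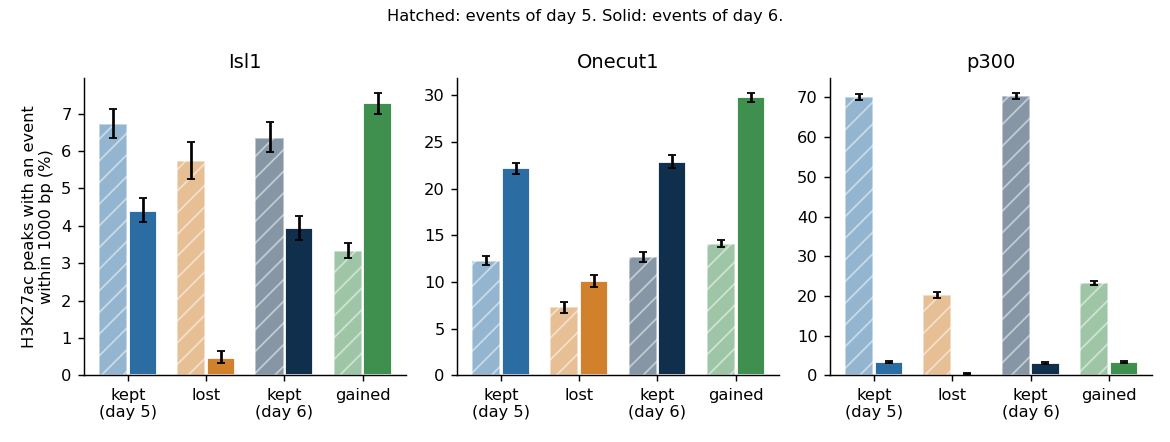
Share of H3K27ac peaks (percent) with an Isl1, Onecut1 or p300 event within 1000 bp, for kept peaks as called on day 5, lost peaks, kept peaks as called on day 6 and gained peaks; hatched bars are events of day 5, solid bars of day 6, and lines exact 95% binomial intervals. Vertical axes differ between panels. Day 6 Isl1 and Onecut1 are most frequent at gained peaks, 7.28% and 29.8%, and day 5 p300 at kept peaks, 70.1%.

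Isl1 events of day 6 were most frequent at gained regions and nearly absent from lost ones. Isl1 had 2 libraries per day, which listed 2260 and 1079 events for day 5, then 1470 and 1560 for day 6. A peak was counted where either library had an event within 1000 bp. Day 5 Isl1 was near 6.73% of kept (6.35 to 7.13) and 5.73% of lost peaks (5.24 to 6.25), against 6.39% of the list. Day 6 Isl1 was near 4.40% of kept and 0.469% of lost peaks (0.334 to 0.641), against 3.07%. In the day 6 list, day 5 Isl1 was near 6.35% of kept and 3.33% of gained peaks (4.22% of the list), and day 6 Isl1 near 3.93% of kept (3.61 to 4.27) and 7.28% of gained peaks, against 6.29%.

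Each library gave this order. On day 6, the first Isl1 library was near 2.65% of kept and 4.31% of gained peaks, and the second near 2.30% and 4.67%. At lost peaks these libraries had 0.217% and 0.289%. On day 5, the first library was near 5.04% of lost and 2.63% of gained peaks and the second near 2.14% and 1.54%. Gained minus lost for day 6 Isl1 was 6.81 points with either library counted, 4.39 without the first and 4.10 without the second. For day 5 it was -2.40 points, and -0.606 without the first library.

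Seen from the events, 57.6% and 56.9% of day 6 Isl1 events in the 2 libraries lay near a gained peak and no kept one, and 22.9% and 19.4% near a kept peak. On day 5 these shares were 21.3% and 22.7% near gained peaks alone and 30.4% and 34.9% near kept ones. Of lost peaks with Isl1 on day 5, 5.46% (26 of 476) had it on day 6, against 33.3% (30.5 to 36.2) of kept day 5 peaks. Among the highest quartile of day 6 peaks by score, 55.7% (52.3 to 59.0) of those with day 6 Isl1 were gained and 25.9% (25.1 to 26.7) of those without.

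Onecut1 events of day 6 were found near more of the gained peaks than near kept or lost ones. On day 5 Onecut1 was near 12.3% of kept and 7.28% of lost peaks (10.6% of the list), and near 12.7% of kept and 14.1% of gained day 6 peaks (13.7% of the list). On day 6, when its list was longer (63488 events against 23245), it was near 22.2% of kept and 10.1% of lost peaks (18.1% of the list), and near 22.9% of kept (22.2 to 23.6) and 29.8% of gained peaks (29.3 to 30.3), against 27.8%. Per Mb of searched sequence, day 6 events numbered 163 at gained, 103 at kept and 47.8 at lost peaks. With both Onecut1 lists at equal length, gained exceeded lost peaks on day 6 by 16.8 points, beside 19.6 with the full list.

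In every quartile of score, the share gained was higher with 1 or 2 day 6 Onecut1 events nearby than with none. Among the highest quartile of day 6 peaks, 25.4% (24.5 to 26.3) were gained where there was no day 6 Onecut1 event, 31.7% with 1, 42.7% with 2 and 44.3% (37.8 to 50.9) with 3 or more. The last step lay within the intervals. In the lowest quartile, where nearly all peaks were gained, the shares were 90.5%, 94.5%, 96.0% and 97.9%. Over all scores they were 68.5%, 74.7%, 78.0% and 77.3%, and in the second quartile 86.6%, 89.1%, 93.9% and 93.1%. The gained peak with the most events, chr15:102582740-102583469, had 7 on day 6 and 4 on day 5 within 1000 bp. The peak at chr13:57775405-57776293 had 6 on day 6 and none on day 5. Even so, 80.8% of day 6 Onecut1 events lay near no H3K27ac peak of either day.

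Most gained peaks with Onecut1 on day 5 also had it on day 6. Of gained peaks, 11.3% had Onecut1 on both days, 18.5% on day 6 alone and 2.86% on day 5 alone. Where a gained peak had Onecut1 on day 5, 79.8% (78.6 to 80.9) had it on day 6, against 56.5% (52.5 to 60.5) of lost, 74.9% (73.0 to 76.8) of kept day 5 and 75.2% (73.1 to 77.2) of kept day 6 peaks. Onecut1 and Isl1 also met at the same peaks. Day 6 Onecut1 was near 59.6% (57.6 to 61.6) of gained peaks with Isl1 and 27.4% (26.9 to 27.9) of those without. Kept day 6 peaks gave 61.1% and 21.4%, so this meeting was found in both classes. Gained peaks with both factors numbered 1446, or 4.34%, and those with neither 22430, or 67.3%.

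**Figure D5:**
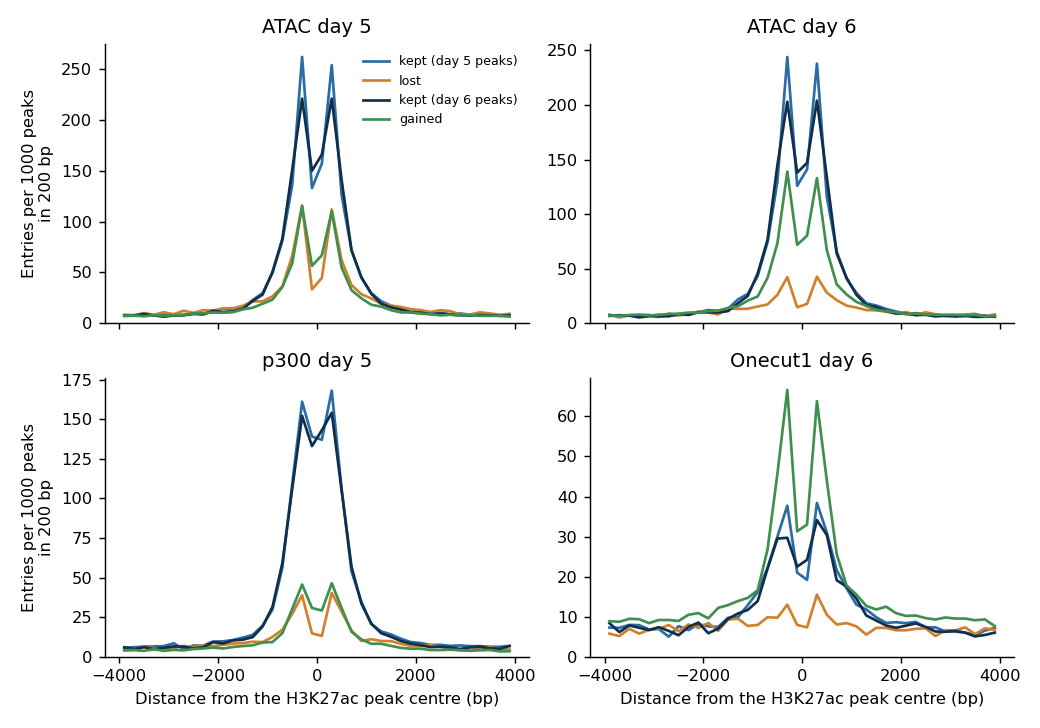
Entries per 1000 H3K27ac peaks in 200 bp bins (vertical axes, which differ between panels) by distance in bp from the peak centre, for ATAC of day 5 and day 6, p300 of day 5 and Onecut1 of day 6; lines are kept peaks as called on each day, lost and gained peaks. Entries peak about 300 bp to either side of the centre, with day 6 Onecut1 at 66.6 and 63.8 per 1000 gained peaks against 37.7 and 38.4 per 1000 kept day 5 peaks.

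Events of all 3 proteins left much of the exchange uncovered. No Isl1, Onecut1 or p300 event of either day lay near 68.0% (67.0 to 69.0) of lost and 48.8% (48.2 to 49.3) of gained peaks, against 21.0% (20.3 to 21.6) of kept day 5 peaks. The low share at kept peaks came with p300, whose day 5 list was much the longer. No p300 event of either day lay near 29.3% of kept day 5, 79.6% of lost and 75.1% of gained peaks. For Onecut1 alone these shares were 74.7%, 86.7% and 67.4%, so gained peaks were the most often covered. For Isl1 alone they were 91.1%, 94.1% and 90.7%. Among gained peaks without ATAC of day 6, day 6 Onecut1 was still near 24.2%, against 34.0% of those with ATAC. Kept day 6 peaks showed 23.9% and 22.7%, without that gap.

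The day 4 lists split both the lost and the gained peaks into 2 kinds. A day 4 peak in either library was found at 76.8% (76.1 to 77.4) of kept day 5 peaks and 55.8% (54.7 to 56.9) of lost peaks, against 69.7% of the day 5 list. In the day 6 list it was found at 79.9% (79.2 to 80.6) of kept and 14.2% (13.8 to 14.5) of gained peaks, against 33.6%. Gained minus lost was -41.7 points, with -29.1 points when the first day 4 library was left out and -41.0 when the second was. The 4638 lost peaks with a day 4 peak had ATAC near the centre in 75.9% on day 4, 54.3% on day 5 and 26.6% on day 6, and day 5 Isl1 near 3.62% (3.10 to 4.20). The 3671 without one had ATAC in 24.7%, 40.3% and 13.4%, and Isl1 near 8.39% (7.51 to 9.33). The second kind was seen on day 5 alone, was narrower (median 235 against 336 bp), and had Isl1 more often.

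Gained peaks with a day 4 peak, 4721 in all, were open on every day: 92.1% on day 4, 90.3% on day 5 and 89.3% on day 6. They had p300 of day 5 in 55.5% and day 6 Isl1 in 1.33% (1.03 to 1.70). These values are those of regions marked on day 4 and day 6 and not called on day 5. The 28612 gained peaks without a day 4 peak had ATAC in 18.2%, 39.6% and 51.6%, p300 of day 5 in 17.9%, day 6 Isl1 in 8.26% (7.94 to 8.58) and day 6 Onecut1 in 31.8% (31.2 to 32.3), against 17.6% (16.6 to 18.8) with one. Kept day 6 peaks as a whole had day 6 Isl1 in 3.93% and day 6 Onecut1 in 22.9%. Gained peaks unmarked on day 4 lay above these shares, and those with a day 4 peak below them. Kept peaks were not split by day 4. Lost peaks with a day 4 peak had 0.237% and 10.7%, lower than gained peaks with one.

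RNA of both days, 1 library each in FPKM (fragments per kilobase of gene, scaled to library size), was read for genes that write, read or erase acetylation of histones, together with Ezh2, Kdm6a and Kdm6b, which write or erase methylation of the same lysine. Over 11164 genes at 1 FPKM or more on either day, 734 (6.57%) had day 6 values at least 2-fold above day 5, and 691 (6.19%) at least 2-fold below it, on the log2(FPKM + 1) scale. Of these 15 genes, none was 2-fold higher, and 1 was lower. That gene was Hdac1, a histone deacetylase, at 18.3 FPKM on day 5 and 5.17 on day 6. Ep300, which encodes p300, stood at 13.7 and 12.6 FPKM, Brd2, a reader of acetylated histones, at 27.8 and 28.6, and Hdac2 at 89.0 and 100. The median difference over the list was -0.36 and over all measured genes -0.07 (log2). Ep300 RNA was thus within 2-fold between the days, while the p300 list of day 6 was short. The lowest −log10 p among p300 events was 2.14 on day 5 and 3.08 on day 6. Why the lists differ in length was not tested.

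Of the mapped factors, Isl1 RNA was 88.0 and 116 FPKM and Onecut1 RNA 12.5 and 14.0, while Lhx3, the partner of Isl1 in young motor neurons, was 24.1 and 3.90. All 8 motor neuron markers were measured. Day 6 values exceeded day 5 by 2-fold or more in 2 of them and lay below by as much in 2 (median difference -0.03, log2). Prph, a motor neuron intermediate filament, was 8.16 and 132 FPKM, while Lhx4, a LIM-homeodomain factor, was 22.8 and 10.4 and Mnx1, the motor neuron homeodomain factor, 36.5 and 22.0. Of 4 neuronal markers measured, 2 were higher, among them Nefl, a neurofilament, at 195 and 800. Markers of other cell states differed between the days. All 5 cycling genes and 4 of 5 progenitor genes were at least 2-fold lower on day 6, with summed levels of 106 and 17.5 FPKM and of 43.1 and 14.1 FPKM, for example Olig2, the motor neuron progenitor factor, at 17.3 and 0.950. Nes, the remaining progenitor gene, was within 2-fold, at 7.48 and 10.1. Of 4 genes of V3 neurons and floor plate, Sim1 (0.529 and 3.24 FPKM) and Shh (1.05 and 3.23) were higher. Nkx2-2 (8.86 and 5.18) and Foxa2 (2.80 and 3.33) were within 2-fold, and the summed level of the list was 13.2 and 15.0 FPKM. Of the interneuron, V2 and glial lists, 2 of 7, 1 of 4 and 1 of 5 genes were measured and none was 2-fold apart. No pluripotent or mesoderm, endothelium and blood gene reached 1 FPKM. The part of these marker differences in the lost and gained peaks was not tested.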

How the data were processed

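H3K27ac ChIP-seq peaks of days 4, 5 and 6, ATAC-seq peaks of days 2, 4, 5 and 6, ChIP-exo events of Isl1 and Onecut1, ChIP-seq events of p300 and total RNA of days 5 and 6 were used as deposited, on mm9. Per the submitters' processing notes, Bowtie 0.12.7, HOMER 4.7.2, STAR and MACS were used, with no role given for each. H3K27ac lists come from single libraries. The authors deposited a score per peak with no stated unit, used here only within a list. Event lists give signal (reads per event) and −log10 p, per the file headers. FPKM values were deposited by the authors, from RNA depleted of ribosomal RNA, per the labels' protocols.

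Overlaps, windows of 1000 bp from peak edges, shares and exact binomial intervals were computed with Python 3.11.15, pandas 2.3.3 and scipy 1.17.1. The overlap code was tested on simulated intervals. Log2 differences used a pseudocount of 1 FPKM. Sequences and genes near peaks were not used here, for want of an mm9 genome and annotation. Regions were named by rank of score, width, gain of width, gained or lost bases, or Onecut1 events within their class. The members and lists were chosen with earlier results of these data known. Quartiles of score were added after the data were seen. ATAC within the peak was the main measure and the window around the centre an alternative.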

Additional observations from a re-analysis of the deposited data

How the results depend on the processing

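No paired analysis was possible because no result comes from a test: H3K27ac of days 5 and 6 has 1 library per day, and replicate numbers exist for Isl1 and day 4 H3K27ac alone. Over 68 alternative values set against a counting interval around the reported value, 18 stayed within it, 48 moved past it without reversing, and 2 reversed. The intervals were exact 95% binomial for shares, Newcombe 95% for differences in points, and 95% by rank for the median width ratio. For the width difference, the ends of 2 separate 95% intervals of medians were subtracted, which gives a wider interval. Reversed means that a difference changed sign or a ratio crossed 1. Shares kept and gained could not reverse by this rule. The causes were not tested. Kept day 5 and gained day 6 shares were 66.1% and 70.5% as reported. They were 65.0% and 70.9% when 50% of the shorter peak had to be shared, 72.6% and 61.7% when edges within 1000 bp counted as kept, 57.7% and 52.5% at equal list length, 63.3% and 43.2% in the 10000 highest peaks of each list, and 70.1% and 64.2% after joining peaks over 1000 bp. In the highest quartile of score, chosen after seeing the data, they were 89.7% and 28.0%. Gained peaks were thus a minority of day 6 peaks in this quartile and in the 10000 highest. The median width of gained minus lost peaks was 65.0 bp, and was 307 at equal length, 438 in the 10000 highest, 202 after joining and 157 in the highest quartile. The width ratio of kept pairs was 1.47, with 1.56 at equal length and 1.60 after joining.

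The remaining values are gained minus lost, in points. For ATAC of days 5 and 6 they were 7.44 and 18.0, with 20.2 and 35.4 at equal length, 21.2 and 57.8 in the highest quartile, and -1.30 (reversed) and 36.2 around the centre. For Onecut1 of day 5 they were 6.86, with 5.78 within 250 bp. For Onecut1 of day 6 they were 19.6, with 20.6 at equal length, 15.7 within 250 bp, 16.8 with event lists of equal length and 22.9 in the highest quartile. For p300 of day 5 they were 3.03, with 10.7 at equal length, 4.93 within 250 bp, 15.2 in the highest quartile and -0.243 (reversed) with event lists of equal length. For p300 of day 6 they were 2.88, with 4.47, 2.28 and 6.39 under the first 3 of these. For Isl1 of day 5 they were -2.40, with -3.11 at equal length, -1.28 within 250 bp, -0.622 with both libraries required, and from -2.41 to -0.606 with 1 library left out. For Isl1 of day 6 they were 6.81, with 9.99, 5.20 and 1.67 in the same order, 6.30 around the centre, 14.2 in the highest quartile, and from 4.10 to 4.39 with 1 library left out. For a day 4 peak they were -41.7, with -28.4 in both libraries, -60.4 in the highest quartile, and from -41.0 to -29.1 with 1 library left out. RNA of genes near peaks and sequence features were not run. Hdac1 was the 1 enzyme or reader 2-fold apart under each RNA setting. Depth is unknown, so regions missing from a list may be marked below its threshold.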
